A study of Drosophila melanogaster with 6 samples.

Results

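The genes described here are 44 *Drosophila* genes that the count table lists only by a CG number, the systematic identifier given to a predicted gene, and that were much less abundant in enteroendocrine cells (EEs) after depletion of *pros*. They were chosen by their measured values: at least 10 CPM (a gene's counts per 1000000 counts of the sample) in every control sample, and a mean in *pros*-depleted samples at or below one eighth of the control mean. *CG13565*, which encodes the hormone precursor Orcokinin, was left out by the same rule. Of 17558 genes in the table, 7394 carry only a CG number, 1973 of these reached 10 CPM in every control sample, and the 44 members are 2.23% of the 1973. Of the 3145 other genes that reached that level, 50 (1.59%) met the same limits. *CG13565* is counted with these other genes and is one of the 50. Because the members were selected on this contrast, their decrease is given as a description, without a test. All 44 members were found in RefSeq, which gives 8 of them a symbol.

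EEs are the hormone-producing cells of the gut epithelium. They sense the gut contents and release peptide hormones from secretory vesicles, using much of the machinery that neurons use at synapses. *pros* (*prospero*) encodes a homeodomain transcription factor that marks EEs in the fly midgut and is needed for their formation from intestinal stem cells. Much less is known of the genes that EEs express under CG numbers alone, and no function is stated here where the table, the study and RefSeq give none.

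The *pros*-depleted group (3 samples) carried prosV1-Gal4ts, UAS-GFP and UAS-*pros-RNAi*, and the control group (3 samples) carried prosV1-Gal4ts and UAS-GFP without the hairpin. All flies were adult females, 5 to 7 days old when moved to 29 °C, where they stayed for 7 days. Each sample held GFP-positive, propidium iodide-negative cells, about 20000 of them, sorted from pooled guts, and the RNA was amplified before sequencing. The same *pros* driver made the GFP used for sorting and the hairpin, so a cell that lost the driver's activity would have left the sorted population. The labels of *pros*-depleted replicates 2 and 3 spell the driver Gal5ts and Gal6ts, and the 3 samples were taken as a single genotype, as their titles say. No control with another hairpin was among the samples.

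The samples held 27183747 to 40766059 counts, and a floor of 3 counts stood for 0.0736 to 0.110 CPM. Amplified reads are not independent molecules, and this limit and the intervals below cover counting error only. *pros* itself was at 172, 130 and 182 CPM in *pros*-depleted samples, against 487, 518 and 805 CPM in control samples, so that 26.7% of the control mean was left. Of the 14 EE markers listed for this comparison, all 14 were lower without overlap between the groups, with sums of 11146 to 15587 CPM in *pros*-depleted samples and 121186 to 132978 CPM in control samples. Of 8 progenitor markers, 7 were higher without overlap (sums of 627 to 798 CPM in *pros*-depleted and 241 to 338 CPM in control samples), as were 8 of 10 enterocyte markers (5737 to 12531 CPM in *pros*-depleted and 1459 to 4121 CPM in control samples), and none of these was at 0 in either group. Of the 10374 genes tested, 19.1% were lower without overlap. The share of all genes higher without overlap is not given here, so nothing is read from the counts of higher markers. The 4 neuron markers found summed to 107 to 176 CPM in *pros*-depleted and 145 to 213 CPM in control samples. Visceral muscle markers summed to at most 33.3 CPM, hemocyte markers to at most 21.3 CPM and fat body markers to at most 8.09 CPM in any sample. The part of such cells in the members' decrease was not tested, and in sorted bulk samples fewer cells of a type and less RNA per cell cannot be told apart.

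Control replicate 1 and *pros*-depleted replicate 1 stood apart for some members. In 6 members, control replicate 1 lay at or below 25% of each of the other control samples. These are described separately below, and values without that library are given beside them.

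In every member, all *pros*-depleted samples lay below all control samples, which the choice of members makes likely and which held for 19.1% of the 10374 genes tested. edgeR's quasi-likelihood test called 39 of the 44 lower, against 7.96% of the genes tested. Both counts come from the contrast that chose the members, so nothing is read from them. A median of 4.86% of the control mean was left, with a range of 0.214% to 11.9%. The limit of the rule, 12.5%, is below the share left of *pros*, so all 44 had to lie below that share. Under 1% was left in 3 members, between 1% and 5% in 20, and above 5% in 21. None was at 0 in all *pros*-depleted samples, and 40 members had at least 10 counts in each of them. In 33 members, every *pros*-depleted sample was under 10 CPM. The gap between the groups varied more than the means: the lowest control sample was at least 8 times the highest *pros*-depleted sample in 26 members and less than 2 times in 5.

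**Figure D1:**
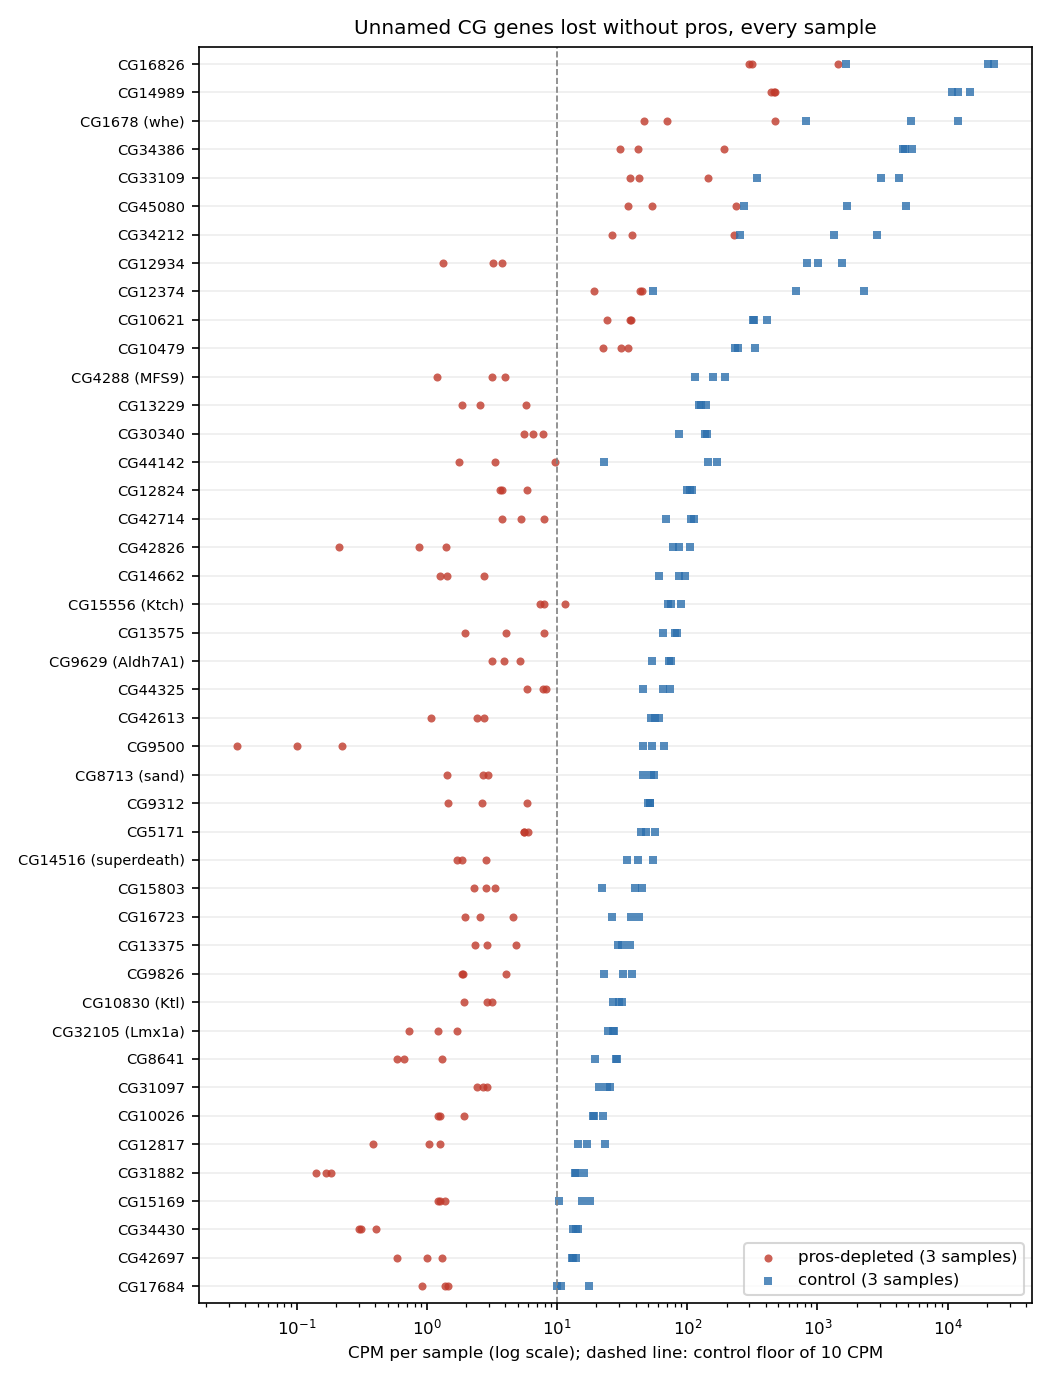
CPM of each of the 44 members (rows, ordered by control mean CPM, with RefSeq symbols in brackets) on a log axis, in 3 pros-depleted samples (red circles) and 3 control samples (blue squares). The groups do not overlap in any row, but come close in rows such as CG16826, CG45080, CG34212 and CG12374, where 1 control sample lies near the pros-depleted samples.

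The 44 members together held 0.318%, 0.114% and 0.138% of all counts in *pros*-depleted samples, against 2.26%, 6.76% and 5.79% in control samples. The means were 0.190 ± 0.111% and 4.94 ± 2.37% (SD, n = 3 each). The lowest control share was that of control replicate 1 and the highest *pros*-depleted share that of *pros*-depleted replicate 1. Leaving out the 6 members low in control replicate 1, the others held 0.0653%, 0.0677% and 0.0880% in *pros*-depleted samples, against 1.92%, 2.07% and 2.58% in control samples, so most of the spread within each group came with those 6. The control mean was above 1000 CPM in 9 members, 100 to 1000 CPM in 7 and under 100 CPM in 28.

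**Figure D2:**
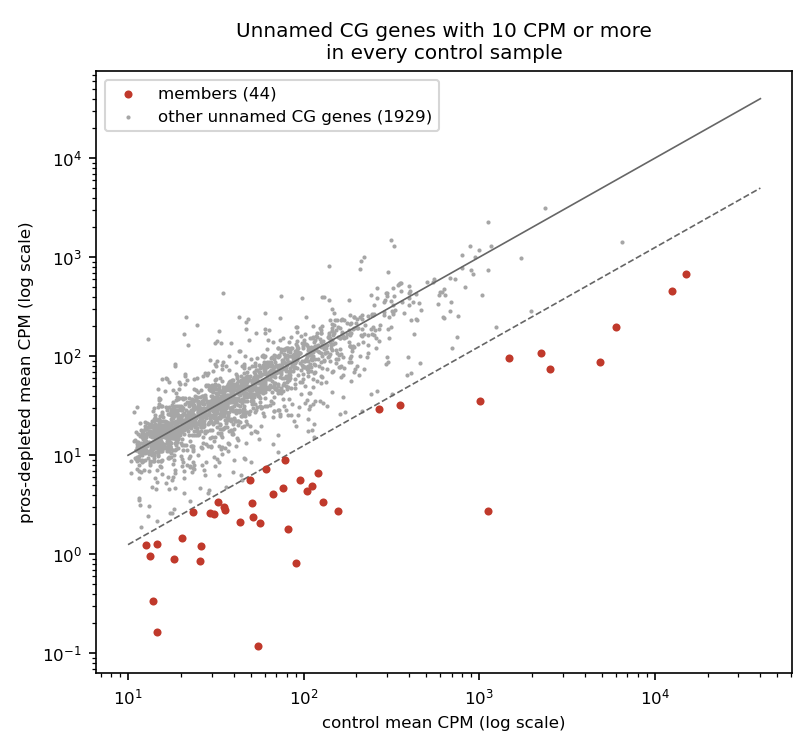
Mean CPM in pros-depleted samples against mean CPM in control samples (both log axes, 3 samples each) for the 44 members (red) and the 1929 other CG-numbered genes with 10 CPM or more in every control sample (grey). The solid line marks equal means and the dashed line one eighth, the limit of the rule; the members lie below it over the whole range of control levels, from 12.7 to 15007 CPM.

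Per kb of exon, the members' control level ranged from 3.74 to 13930 CPM per kb, and the *pros*-depleted level from 0.103 to 547 CPM per kb. Control levels were used by the rule, so the members' control level is not independent of their choice. The median control level was 36.6 CPM per kb, against 18.1 CPM per kb in the other CG-numbered genes that reached 10 CPM. It was 32.6 CPM per kb in the other genes within the same limits, so a level above 18.1 CPM per kb was not particular to the members. By this measure the highest in control EEs were *CG1678*, *CG16826*, *CG45080*, *CG14989* and *CG34212*, with means of 13930, 12025, 8022, 4311 and 4155 CPM per kb. All but *CG14989* belong to the 6 members low in control replicate 1, whose control samples differ several-fold, so their order among these is uncertain.

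*CG14989* (chromosome 3L, 4087581 to 4092706, BDGP6) was the most abundant member with steady levels, and its protein has 246 residues. It was at 436, 465 and 472 CPM in *pros*-depleted samples, against 10843, 12027 and 14859 CPM in control samples. Both groups were tight, and 3.64% of the control mean was left. *CG34386* (2R, 18062415 to 18093628) was at 41.5, 30.6 and 191 CPM in *pros*-depleted samples, against 4714, 4562 and 5334 CPM in control samples. Here the control samples were close together, and *pros*-depleted replicate 3 was the highest of its group. *CG12934* (2R, 10648888 to 10649830), with a single annotated exon and 237 residues, was at 3.18, 1.32 and 3.75 CPM in *pros*-depleted samples, against 831, 1535 and 1004 CPM in control samples. Its lowest control sample was 221 times its highest *pros*-depleted sample, the widest gap among the 44 members. *CG10621* (2L, 18952206 to 18954431) kept more of its expression (9.17% of the control mean), at 36.3, 24.0 and 36.8 CPM in *pros*-depleted samples, against 410.1, 327 and 321 CPM in control samples.

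*CG12374* (2R, 12762113 to 12763825), which the study's term lists place under proteolysis, had the widest control spread of the 44 members. It was at 19.3, 43.3 and 44.5 CPM in *pros*-depleted samples, against 683, 54.5 and 2295 CPM in control samples. Control replicate 2 was within 1.22 times the highest *pros*-depleted sample, and the highest control sample was 42.1 times the lowest. The summed enterocyte markers were 12531, 5945 and 5737 CPM in *pros*-depleted samples, against 1668, 1459 and 4121 CPM in control samples. *CG12374* was lowest in the *pros*-depleted sample in which they were highest, and in control samples both had the same order. The part of such cells in the spread of *CG12374* was not tested.

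The 6 members low in control replicate 1 were *CG16826*, *CG1678* (RefSeq symbol *whe*), *CG33109*, *CG45080*, *CG34212* and *CG44142*, a group formed after their values were seen. *CG16826* (2L, 13347773 to 13349020) was at 1437, 300.0 and 312 CPM in *pros*-depleted samples, against 1648, 22824 and 20550.2 CPM in control samples. *CG1678* (X, 21402339 to 21402772) was at 469, 46.7 and 70.3 CPM in *pros*-depleted samples, against 820.2, 12092 and 5225 CPM in control samples. *CG33109* (3R, 14220560 to 14221584) was at 143, 42.7 and 36.1 CPM in *pros*-depleted samples, against 343, 4204 and 3078 CPM in control samples. In all 3, replicate 1 was the highest *pros*-depleted sample and the lowest control sample. *CG45080* (3R, 13318991 to 13319270) was at 237, 34.8 and 53.9 CPM in *pros*-depleted samples, against 273, 4771 and 1695 CPM in control samples. *CG34212* (2R, 6049874 to 6050286) was at 228, 37.5 and 26.2 CPM in *pros*-depleted samples, against 253, 2859.6 and 1350.0 CPM in control samples. *CG44142* (3R, 13312855 to 13313188), at lower levels, was at 9.59, 3.33 and 1.77 CPM in *pros*-depleted samples, against 22.7, 170.1 and 144 CPM in control samples. The same shape was seen in each of the 6: control replicates 2 and 3 were 5.33 to 17.5 times control replicate 1, and *pros*-depleted replicate 1 was 3.64 to 8.01 times the mean of the other *pros*-depleted samples.

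**Figure D3:**
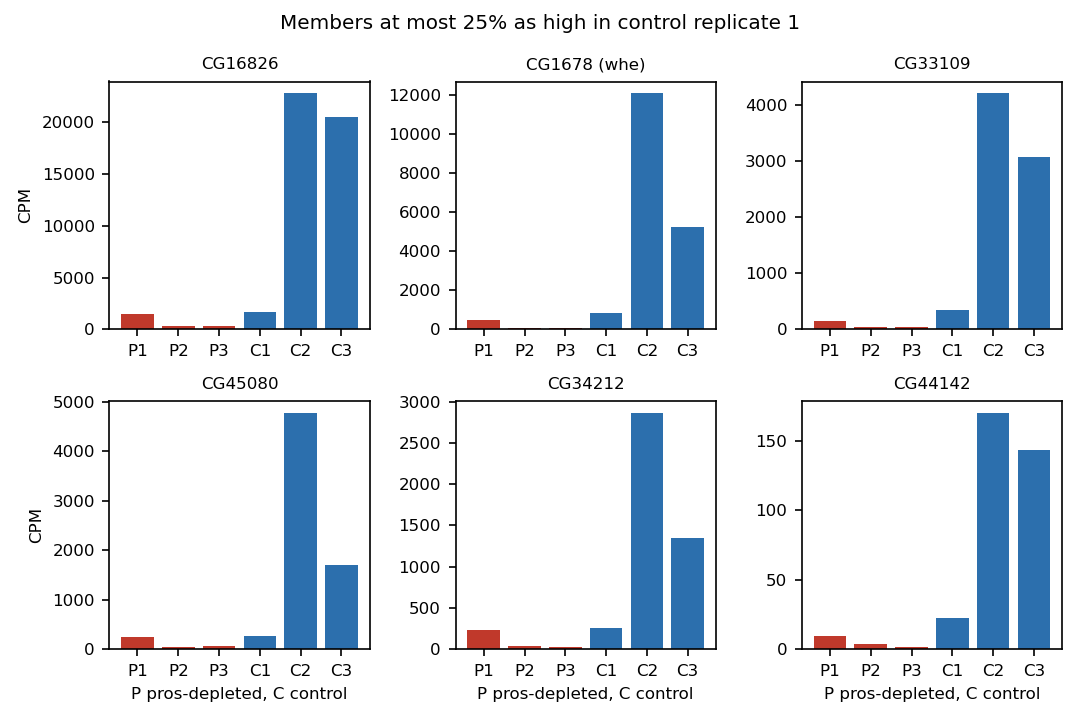
CPM (linear axes from 0, a scale of its own for each gene) of the 6 members at most 25% as high in control replicate 1 as in each other control sample, in pros-depleted samples P1 to P3 (red bars) and control samples C1 to C3 (blue bars). In each gene P1 is the highest pros-depleted sample and C1 the lowest control sample, and P1 was 41.8% to 89.9% of C1.

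Without control replicate 1, 2.03% to 4.61% of the control mean was left in these 6 members, against 2.91% to 6.53% with all samples. Without replicate 1 of both groups, 0.676% to 1.62% was left. The 6 were grouped for their low control replicate 1, so leaving it out had to lower the percentage. *pros*-depleted replicate 1 was the highest of its group in each, so leaving it out had to lower the percentage further. The 6 held 0.252%, 0.0465% and 0.04998% of all counts in *pros*-depleted samples, against 0.336%, 4.69% and 3.20% in control samples. Of the 5 members that edgeR did not call lower, 4 were among these 6 (*CG16826*, *CG1678*, *CG45080* and *CG34212*) and the other was *CG12374*, and these 5 are the members with a gap under 2 times. All 5 were called by DESeq2. The summed progenitor markers were 715, 798 and 627 CPM in *pros*-depleted samples, against 338, 303 and 241 CPM in control samples. Neither they nor the enterocyte markers, whose sums are given above, had replicate 1 at an end of both groups. Progenitor markers were in the middle of the *pros*-depleted samples there, and enterocyte markers in the middle of the control samples. Neuron markers were highest in *pros*-depleted replicate 1 (176, 107 and 165 CPM) and lowest in control replicate 1 (145, 168 and 213 CPM). So were hemocyte markers, at 3.55, 0.556 and 2.02 CPM against 3.85, 21.3 and 5.76 CPM. EE, visceral muscle and fat body markers were not. The part of any of these cells in the shape of the 6 members was not tested.

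Of these 6 members, 4 were small. The median exonic length of the 6 was 396 bp, against 1989 bp in the other 38 members, and those 4 encode fewer than 100 residues (*CG34212* 48, *CG45080* 55, *CG44142* 83 and *CG1678* 85), which no other member does. *CG16826* and *CG33109* are longer, with 1248 and 1025 bp of exon and 341 and 296 residues, near the members' median of 343 residues. A single exon was annotated for 5 of the 6, against 4 of the other 38. In the 37 members that are neither among the 6 nor *CG12374*, the highest control sample was at most 2.04 times the lowest.

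The strongest relative decrease was that of *CG9500* (2L, 6357005 to 6358318), with 3, 1 and 6 counts (0.0995, 0.0347 and 0.221 CPM) in *pros*-depleted samples, against 66.2, 45.5 and 53.9 CPM in control samples. With pooled counts, 0.206% of the control level was left (95% interval 0.0989% to 0.380%, exact binomial, counting error only). *CG12934* followed, with 0.245% left. *CG42826* (3L, 10099357 to 10100881), listed by the study under transmembrane transport, was at 0.862, 0.208 and 1.40 CPM in *pros*-depleted samples, against 87.0, 78.2 and 105 CPM in control samples, so that 0.914% was left. *CG31882* (2L, 9624452 to 9625285) had 5, 4 and 5 counts (0.166, 0.139 and 0.184 CPM) in *pros*-depleted samples, against 13.9, 15.98 and 13.8 CPM in control samples. With pooled counts, 1.13% was left (95% interval 0.614% to 1.89%). These 4 differed widely in control level, and their *pros*-depleted samples all stayed under 4 CPM.

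Among the next in this order, *CG4288* (symbol *MFS9*, 3R, 20507392 to 20512468), a transporter of the major facilitator superfamily, was at 1.19, 3.16 and 3.94 CPM in *pros*-depleted samples, against 116, 196 and 159 CPM in control samples. *CG14662* (3R, 4981999 to 4984232) was at 1.43, 1.25 and 2.76 CPM in *pros*-depleted samples, against 60.8, 86.1 and 96.4 CPM in control samples. *CG34430* (2R, 7943442 to 7944475) was at 0.299, 0.312 and 0.405 CPM in *pros*-depleted samples, against 13.98, 13.3 and 14.3 CPM in control samples. *CG13229* (2R, 11139304 to 11172206) was at 2.55, 1.84 and 5.70 CPM in *pros*-depleted samples, against 139, 128 and 123 CPM in control samples. In these 4 genes between 1.76% and 2.59% of the control mean was left. *CG34386* (1.80% left) and *CG33109* (2.91% left) complete the 10 lowest.

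**Figure D4:**
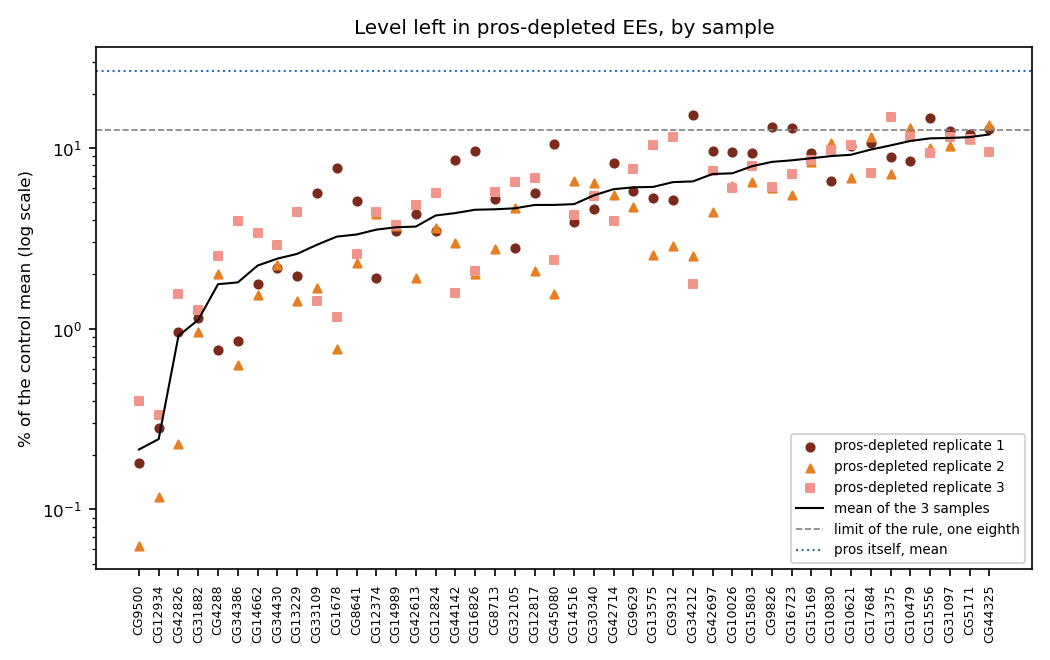
Level in each pros-depleted sample as a percentage of the control mean (log axis) for the 44 members, ordered by the mean of the 3 samples (black line). The dashed line is the limit of one eighth and the dotted line is pros itself (26.7%); single samples pass the limit in some members, and the samples of one gene differ most in CG1678 and CG34212.

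Across the members, the median level left in the single *pros*-depleted samples was 5.71%, 3.65% and 5.51% of the control mean. *pros*-depleted replicate 2 was the lowest of its group in 25 members, while replicate 3 was the highest in 21 and replicate 1 in 17. *pros* itself was also lowest in replicate 2. Among control samples, replicate 1 was the lowest in 25 members. The highest *pros*-depleted sample was a median of 2.19 times the lowest, and the highest control sample a median of 1.44 times the lowest.

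For 11 members the study's lists of Gene Ontology terms name a process, and for 33 they name none. Those lists were drawn from genes that fell in this comparison and are not independent of it. The transport group held *MFS9* and *CG42826*, described above, *CG9826* and *CG10026*. *CG9826* (2R, 22840739 to 22842977; transmembrane transport) was at 4.01, 1.84 and 1.88 CPM in *pros*-depleted samples, against 22.8, 31.8 and 37.7 CPM in control samples. *CG10026* (2L, 19454256 to 19457723), listed under transport and sleep, was at 1.92, 1.25 and 1.21 CPM in *pros*-depleted samples, against 19.3, 22.6 and 18.7 CPM in control samples. Of these 4 genes, *MFS9* and *CG42826* kept under 2% of their control mean, and *CG9826* and *CG10026* kept 8.37% and 7.24%.

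Among members tied by annotation to channels or receptors, the control means of *CG8713*, *CG10830* and *CG15556* were 26.0, 10.2 and 29.7 CPM per kb. *CG8713* (*sand*, 2R, 8091696 to 8096948), which encodes a potassium leak channel, was at 2.69, 1.42 and 2.94 CPM in *pros*-depleted samples, against 55.6, 45.9 and 52.6 CPM in control samples. *CG10830* (*Ktl*, 3R, 20894452 to 20897320), named for a potassium channel tetramerisation domain and listed under protein homooligomerization, sleep and male courtship behavior, was at 1.92, 3.12 and 2.87 CPM in *pros*-depleted samples, against 26.6, 31.4 and 29.8 CPM in control samples. *CG15556* (*Ktch*, 3R, 31127965 to 31130666), listed under cell surface receptor signaling, was at 11.4, 7.85 and 7.32 CPM in *pros*-depleted samples, against 70.4, 90.1 and 74.99 CPM in control samples. Of these 3, *sand* kept the least (4.58%) and *Ktch* the most (11.3%). *CG8641* (3L, 7058930 to 7077462), listed under signalling by small GTPases, which are molecular switches of many membrane processes, was at 1.29, 0.590 and 0.662 CPM in *pros*-depleted samples, against 19.6, 28.5 and 28.6 CPM in control samples.

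A single member encodes a transcription factor by its symbol: *CG32105* (*Lmx1a*, 3L, 12329232 to 12335901), of the LIM homeodomain class. It was at 0.730, 1.22 and 1.69 CPM in *pros*-depleted samples, against 27.1, 24.6 and 26.8 CPM in control samples, so that 4.63% was left. The control samples differed little, while the *pros*-depleted samples spanned 2.32 times.

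Among members with enzyme or process annotations, *CG9629* (*Aldh7A1*, 3L, 19266473 to 19268913), an aldehyde dehydrogenase, was at 3.88, 3.16 and 5.15 CPM in *pros*-depleted samples, against 53.8, 72.9 and 74.7 CPM in control samples. *CG17684* (2R, 1866080 to 2262115), listed under proteolysis like *CG12374*, was at 1.36, 1.46 and 0.920 CPM in *pros*-depleted samples, against 10.03, 17.5 and 10.7 CPM in control samples. *CG42613* (3R, 18929196 to 18978088), listed under sleep, was at 2.42, 1.08 and 2.72 CPM in *pros*-depleted samples, against 60.2, 52.7 and 56.5 CPM in control samples. The control levels of *CG42613* were tight, but it shares 5507 bp of exon with *CG43732* on the same strand, so its reads may belong in part to that gene. *CG14516* (*superdeath*, 3R, 29138662 to 29145787) has a symbol but no process in the study's term lists. It was at 1.69, 2.85 and 1.84 CPM in *pros*-depleted samples, against 34.3, 54.3 and 42.0 CPM in control samples.

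The limits of the rule cut through a continuous range. Just inside the ratio, 11.9% was left of *CG44325*, 11.5% of *CG5171* and 11.4% of *CG31097*. Just outside it, 12.6% was left of *CG3857*, 13.0% of *CG6074* and 13.1% of *CG10301*. Just inside the floor, the lowest control sample was 10.03 CPM in *CG17684*, 10.2 CPM in *CG15169* and 13.0 CPM in *CG42697*, and just outside it was 9.62 CPM in *CG17374*, 9.40 CPM in *CG7589* and 9.003 CPM in *CG10131*. *CG6074* and *CG7589* were also low in control replicate 1 alone, at 29.0 and 9.40 CPM, with 301 to 318 and 136 to 185 CPM in the other control samples. The rule applied without that sample took 67 genes, among them all 44 members. Of the 23 added, 19 had been under 10 CPM in control replicate 1.

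The steadiest control levels were those of *CG9312* (3R, 13765756 to 13767103), *CG42697* and *CG34430*. *CG9312* was at 2.62, 1.46 and 5.85 CPM in *pros*-depleted samples, against 51.3, 50.1 and 52.0 CPM in control samples. *CG42697* (2R, 18611645 to 18612730) was at 1.29, 0.590 and 0.993 CPM in *pros*-depleted samples, against 13.96, 13.2 and 13.0 CPM in control samples. In each of the 3, the highest control sample was at most 1.08 times the lowest, while *pros*-depleted samples differed more.

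The remaining members, among them *CG10479*, *CG30340*, *CG12824*, *CG42714*, *CG13575*, *CG15803*, *CG16723*, *CG13375* and *CG12817*, had no widely spread control samples. Over the 13 members that the naming rule did not single out, control means ranged from 18.3 to 269 CPM and *pros*-depleted means from 0.849 to 29.4 CPM, with 3.32% to 10.9% left (median 6.09%). *CG12824* was at 3.62, 3.75 and 5.85 CPM in *pros*-depleted samples, against 108, 105 and 99.2 CPM in control samples. *CG42714*, the only short gene (451 bp of exon) outside the 6 above, was at 7.93, 5.28 and 3.79 CPM in *pros*-depleted samples, against 68.3, 107 and 112 CPM in control samples.

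Gene size was not used by the rule. The members' median exonic length was 1602.5 bp, against 1883 bp in the 1929 other CG-numbered genes that reached 10 CPM. Genes under 500 bp made up 5 of 44 (11.4%) of the members and 45 (2.33%) of the others, and proteins under 100 residues 4 (9.09%) and 83 (4.31%). A single exon was annotated for 9 members (20.5%) and 171 others (8.88%). These shares are descriptions, and 4 of the 5 short members were among the 6 low in control replicate 1. Control levels, unlike gene size, were used by the rule, so the spread among control samples is not independent of the choice of members. Control spreads above 4 times were seen in 7 members (15.9%) and in 15 of the other CG-numbered genes (0.778%). Among the 50 other genes within the same limits they were seen in 8 (16%), so the share was not particular to the members.

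By position, 14 members lie on 3R, 13 on 2R, 7 on 2L, 7 on 3L and 3 on X. Only *CG44142* and *CG45080* start within 10000 bp of one another, 6136 bp apart on 3R, on the same strand and with no other gene starting between them. Both belong to the 6 members low in control replicate 1. *CG32473*, the next gene on one side and on the opposite strand, did not show this shape. It was at 27.1, 25.7 and 21.6 CPM in *pros*-depleted samples, against 17.4, 18.5 and 24.3 CPM in control samples. *PK2-R2*, on the other side, was at most 0.110 CPM in any sample, too low to show or lack the shape. *CG10621* and *CG15169* were the next closest pair, 38814 bp apart on 2L.

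Exons of 9 members share bases with another gene, and whether counting used strand is not given in the sources used here. On the same strand these were *CG42613*, *CG44325* (1066 bp with *CG10970*) and *CG42697* (133 bp with *GEFmeso*). On the opposite strand they were *CG14662* (1362 bp with *CR43478*), *CG9629* (245 bp, with several genes), *CG12817* (190 bp), *CG8713* (157 bp), *CG14516* (110 bp) and *CG13229* (12 bp). The levels of these members, above all *CG42613*, *CG44325* and *CG14662*, are uncertain to that extent. The other 35 share no exon base.

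The study defined 250 EE signature genes from expression in EEs, progenitors and enterocytes. Because expression in EEs entered both that definition and the rule used here, the list is not independent of the choice of members. Of the members, 25 are on that list, or 56.8% of the members and 10% of the list. It also holds 63 (3.27%) of the other CG-numbered genes that reached 10 CPM and 27 (54%) of the 50 other genes within the same limits. Among the 6 members low in control replicate 1, 5 are on it, the exception being *CG1678*. Pros binding by Dam-ID, which marks DNA near a fusion of Pros with a methyltransferase, was listed for 6 of these 25 genes (24%), namely *CG14989*, *CG42826*, *CG9312*, *CG5171*, *CG9826* and *CG10026*, and for 68 of the 250 signature genes (27.2%). On the study's list of 309 genes bound by Pros and lower in this comparison, 8 members appear, or 18.2% of the members and 2.59% of the list: those 6, *CG12374* and *CG44325*. It holds 94 (4.87%) of the other CG-numbered genes that reached 10 CPM and 15 (30%) of the 50 other genes within the same limits. The latter share is larger than that of the members. That list used the same RNA samples. None of the 6 members low in control replicate 1 is on it.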

How the data were processed

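EEs of 3 *pros*-depleted and 3 control samples were compared, grouped by the condition in their labels. The authors mapped the reads to BDGP6 and deposited the raw counts of 17558 genes (featureCounts 1.6.3, per the submitters' processing notes), of which 15726 had at least 1 count. The treatment of strand and of reads with several positions is not given in the sources used here. CPM are counts over the column sum, unscaled otherwise. Calls used edgeR 4.0.16 in R 4.3.3 (TMM, quasi-likelihood test, Benjamini-Hochberg adjustment) on genes with at least 10 counts in 3 samples, with limits of 0.01 on the adjusted p and 0.5 on the absolute log2 fold change, and the code was tested on simulated data. DESeq2 1.42.0, other scalings, filters and thresholds, a replicate block and leaving out each sample were alternatives. The members and lists were chosen with earlier results of these data known. Named genes were the 10 members highest in control, the 10 with the least left, the 5 highest after depletion, those next to a limit, beside another member, with a RefSeq symbol, or with the 3 widest and 3 narrowest control spreads, and genes named beyond these were chosen after their values were seen. Exon and residue numbers are of the Ensembl 115 canonical transcript, and 43 of the 44 members have the same start and end in RefSeq Release 6. Tables were handled in Python 3.11.15 with pandas 2.3.3 and drawn with matplotlib 3.10.9. Protein and promoter sequences and the study's Dam-ID data were not analysed here.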

Additional observations from a re-analysis of the deposited data

How the results depend on the processing

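The members called lower numbered 39 with edgeR and 35 to 44 over all alternatives. Over all genes, 491 were called higher and 826 lower, against 976 and 1267 by DESeq2 and 1184 and 1519 at an adjusted p under 0.05. Leaving out 1 sample gave 188 to 317 higher and 413 to 596 lower, lowest without control replicate 2, and 35 to 40 members called, of 42 tested in the fits with 2 control samples. Scaling by library size alone moved the median log2 fold change of all genes to 0.14, against 0.02 with TMM. With a replicate block, 346 genes were higher, 643 lower and 37 members called. Deviations of same-numbered samples correlated at -0.16, 0.20 and 0.10, within the range of -0.29 to 0.23 for differently numbered samples. *pros*-depleted replicate 1 correlated best with control replicate 3. With 3 samples per group, these values do not decide whether same-numbered samples were paired.

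The rule took 44 genes, against 94 at a limit of 25%, 27 at one sixteenth, 26 when the highest *pros*-depleted sample had to be at most one eighth of the lowest control sample, 63 and 36 with floors of 5 and 20 CPM, 48 with TMM-scaled CPM and 47 without mitochondrial genes. Leaving out 1 sample gave 44 to 67 genes, the most without control replicate 1. The median level left was 4.67% to 6.21% when 1 sample was left out, the highest without control replicate 2, and 4.47% with TMM-scaled CPM. The mean share of counts was 0.126% to 0.228% in *pros*-depleted samples and 4.02% to 6.27% in control samples when 1 sample was left out, and without the 6 members low in control replicate 1, an alternative added after the data were seen, 0.0737% and 2.19%. With a distance of 5000 bp, 0 members had a neighbouring member. Alternatives on promoter motifs and protein features were not run. The cause of these differences was not tested.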

Other observations

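Genes other than the members showed the same low control replicate 1. Of 5468 genes with a control mean of at least 10 CPM that are not members, 39 (0.713%) had control replicate 1 at or below 25% of each other control sample, 22 of them listed by a CG number alone, while 20 had control replicate 2 that low and 0 had control replicate 3. These limits were set after the values were seen. *lcs*, which starts 5612 bp from *CG1678* on the X chromosome, was at 279, 29.0 and 54.4 CPM in *pros*-depleted samples, against 267, 2372 and 3707 CPM in control samples. *Ag5r* was at 232, 78.6 and 63.7 CPM in *pros*-depleted samples, against 275, 2802 and 2168 CPM in control samples. *LysP*, which encodes a lysozyme, was at 74.9, 28.7 and 38.4 CPM in *pros*-depleted samples, against 35.0, 505 and 615 CPM in control samples. *pros*-depleted replicate 1 was the highest of its group in 32 of the 39 genes, against 25.9% of the 5468. Genes under 500 bp of exon were 3 of the 39 (7.69%), against 1.96% of the 5468. In 25 of the 39, the highest *pros*-depleted sample was above control replicate 1. The source of this difference between samples was not tested.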
